A study of Mus musculus with 6 samples.

Results

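The replication-dependent histone genes examined here are the 64 protein-coding genes of the deposited table whose symbols begin with Hist1h to Hist4h, out of 35275 genes in the table and 21397 protein-coding genes. They were taken by symbol alone, through the Ensembl identifiers of the table and GENCODE M21, so that genes listed at 0 were kept. They comprise 6 genes for the linker histone H1, 18 for H2A, 15 for H2B, 12 for H3 and 13 for H4. The Hist1 cluster on chromosome 13 holds 52 of them, the Hist2 cluster on chromosome 3 holds 9, the Hist3 cluster on chromosome 11 holds 2, and Hist4 on chromosome 6 is 1 gene. A further 3 annotated genes with such symbols were not analysed here.

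RNA was sequenced from mouse 3T3 cells, an immortalised fibroblast line, that expressed either a construct to overexpress NNMT (nicotinamide N-methyltransferase) or a control construct. There were 3 biological replicates of each. The cells had grown for 48 h with 10 µM methionine and 10% dialyzed serum, and the comparison asks which genes change with NNMT, an enzyme that uses S-adenosylmethionine to methylate nicotinamide. The sources used here do not give whether the lines were clones or pools, or what drives the construct.

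Core histones H2A, H2B, H3 and H4 form the protein spool of the nucleosome, and H1 binds the DNA between spools. The clustered genes are transcribed mainly in S phase, when new DNA has to be packaged, and each protein is encoded by many nearly identical genes. Their mRNAs have no introns and normally end in a short stem-loop instead of a poly(A) tail. The stem-loop is bound by the protein Slbp, and cleavage downstream of it forms the end of the mRNA.

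The stem-loop is printed first, since it sets these mRNAs apart from others and bears on how well a library holds them. It was searched in the GENCODE M21 transcripts as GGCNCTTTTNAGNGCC and matched in 40 of the 64 genes. The matches took 5 forms, in which capitals mark the loop:
H2A, H2B, H3 and H1 form: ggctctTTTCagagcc
H3, H2B and H1 form: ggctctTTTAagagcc
form of a single H2A gene: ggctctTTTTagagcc
H4 form: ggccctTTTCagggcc
second H4 form: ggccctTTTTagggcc
The first form was found in 24 genes (10 H2A, 6 H2B, 5 H3 and 3 H1), the second in 6 and the form with a loop of only T in 1 H2A gene. All 9 H4 matches had the stem with ccc and ggg, in 7 genes with a loop ending in C and in 2 with a loop of T alone. The match began 21 to 58 bases after the stop codon (median 31.5). The annotated transcript ran on for 3 to 4884 bases beyond it (median 112.5). No match means only that these letters are not in the annotated transcript, which for several genes ends at the stop codon.

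The promoters of 59 of the 64 genes were matched to RefSeq windows of GRCm38.p6, from 250 bases before to 50 bases after the annotated start. One promoter is printed for the H2A, H3 and H4 gene with the smallest adjusted p in the comparison below and 1 for the H1 gene that went the other way. Capitals mark the letters searched on either strand. These were the octamer ATTTGCAT, which the factor Pou2f1 binds, the CCAAT box, the TATA box as TATAAA, and GGTCCG as the core of the H4 element that Hinfp binds. None of these motifs contains another. The Hist1h2ae window lies at chr13:23571171-23571470, minus strand, that of Hist1h3c at chr13:23745472-23745771, minus strand, that of Hist1h4d at chr13:23581318-23581617, plus strand, and that of Hist1h1c at chr13:23738557-23738856, plus strand.
Hist1h2ae: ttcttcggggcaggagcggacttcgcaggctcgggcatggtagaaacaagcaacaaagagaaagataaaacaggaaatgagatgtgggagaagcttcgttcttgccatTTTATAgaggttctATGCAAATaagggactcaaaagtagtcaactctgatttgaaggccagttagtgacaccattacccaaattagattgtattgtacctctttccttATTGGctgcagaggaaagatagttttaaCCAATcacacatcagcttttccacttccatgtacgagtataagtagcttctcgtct
Hist1h3c: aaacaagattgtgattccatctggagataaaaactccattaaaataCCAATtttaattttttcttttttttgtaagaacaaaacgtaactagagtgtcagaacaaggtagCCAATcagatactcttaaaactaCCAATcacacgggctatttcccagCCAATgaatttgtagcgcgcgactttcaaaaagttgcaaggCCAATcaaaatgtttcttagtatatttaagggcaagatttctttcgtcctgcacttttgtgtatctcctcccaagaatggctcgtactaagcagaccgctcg
Hist1h4d: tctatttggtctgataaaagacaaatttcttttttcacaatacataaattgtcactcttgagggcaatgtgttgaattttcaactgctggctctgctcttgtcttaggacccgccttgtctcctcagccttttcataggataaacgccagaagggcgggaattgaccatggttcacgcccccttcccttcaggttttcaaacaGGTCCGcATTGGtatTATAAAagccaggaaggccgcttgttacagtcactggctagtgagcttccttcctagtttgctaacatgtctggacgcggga
Hist1h1c: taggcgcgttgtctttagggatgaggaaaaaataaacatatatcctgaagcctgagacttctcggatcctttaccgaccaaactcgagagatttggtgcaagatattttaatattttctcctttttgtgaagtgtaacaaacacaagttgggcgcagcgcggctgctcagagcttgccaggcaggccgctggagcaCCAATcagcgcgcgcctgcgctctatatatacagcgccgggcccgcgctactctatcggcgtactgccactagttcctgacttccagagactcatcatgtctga
The octamer was present in 7 of 18 H2A and 4 of 13 H2B promoters, in 0 of the H1, H3 and H4 promoters, and in 1.74% of all 32851 promoters of the table. CCAAT was present in all 6 H1, 18 H2A, 13 H2B and 10 H3 promoters and in 3 of 12 H4 promoters, against 37.4% of all promoters. GGTCCG was present in 11 of 12 H4 promoters, in 1 of 10 H3 promoters and in 8.25% of all promoters. TATAAA was present in 35 of 59 histone promoters (59.3%) and in 13.6% of all promoters. Windows of genes that lie head to head overlap, so 1 site can count for both genes. The octamer and the TATAAA marked for Hist1h2ae are also those of Hist1h2bg. Each match is a description of the letters and not evidence of binding.

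Reads were recovered from the deposited FPKM, which are reads scaled by transcript length and library total. They came to 39982077 in the NNMT library whose column has no number, 35285061 in NNMT 2 and 36284451 in NNMT 3, against 33993862, 38878750 and 31622249 in controls 1 to 3. The 3 NNMT libraries are given in that order throughout. A floor of 3 reads on a 1 kb transcript was worth 0.0749 to 0.0947 FPKM, which covers counting error only. Nnmt stood at 15.7, 15.03 and 18.3 FPKM in NNMT cells and at 7.60, 5.25 and 6.51 FPKM in control cells, 2.53-fold higher without overlap. Of the fibroblast markers 8 of 8 were tested, 5 higher and 2 lower in NNMT cells. Summed FPKM of 4 epithelial markers was at most 0.0340 in NNMT and 0.0466 in control libraries. That of 4 endothelial markers was at most 0.139 and 0.239, that of 4 muscle markers at most 0.765 and 1.39, and that of 4 leukocyte markers 1.03 to 1.64 and 1.63 to 2.16. Epcam, Cd3e, Myod1 and Myog were at 0 in all 6 libraries.

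Histone cluster mRNA was scarce in all libraries and scarcer in NNMT cells. The 64 genes together held 1579, 1252 and 1100 reads in NNMT cells and 1526, 1990 and 1621 reads in control cells. In RPM, reads scaled by the library total alone, that was 39.5, 35.5 and 30.3 in NNMT cells and 44.9, 51.2 and 51.3 in control cells, with no overlap. Their summed FPKM was 61.9 ± 9.56 in NNMT cells and 94.3 ± 8.13 in control cells (SD, n = 3 each), 1.53-fold lower with NNMT. The sources used here do not give whether RNA with poly(A) tails was selected, a step that in general loses most mRNAs that end at the stem-loop. In bulk RNA, fewer cells in S phase and less histone mRNA per cell cannot be told apart.

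Of the 53 genes above 0, mean FPKM was lower with NNMT in 48 (90.6%) and higher in 5, against 46.9% lower among all 20528 genes above 0. The groups did not overlap for 18 lower genes (34.0%) and 2 higher ones. Among all genes above 0 they did not overlap for 21.5% lower and 26.2% higher. The other 11 genes were listed at 0 in all libraries.

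By type, the summed FPKM of the 6 H1 genes was 4.46 ± 0.374 in NNMT cells and 4.08 ± 0.130 in control cells, and the groups overlapped. For the 12 H3 genes it was 4.05 ± 0.539 in NNMT cells and 8.62 ± 1.04 in control cells, 2.13-fold lower. For the 13 H4 genes it was 3.32 ± 0.237 in NNMT cells and 6.39 ± 0.145 in control cells, 1.92-fold lower. H2B summed over 15 genes to 3.00 ± 0.325 in NNMT cells and 5.12 ± 0.316 in control cells, 1.71-fold lower. H2A, the most abundant type, summed over 18 genes to 47.0 ± 9.99 in NNMT cells and 70.1 ± 6.96 in control cells, 1.49-fold lower. Without its 3 highest genes the H2A sum was 5.20 ± 1.23 in NNMT cells and 12.5 ± 0.356 in control cells, 2.41-fold lower. The 4 core types were thus lower in every NNMT library than in every control library, and H1 was not.

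**Figure D1:**
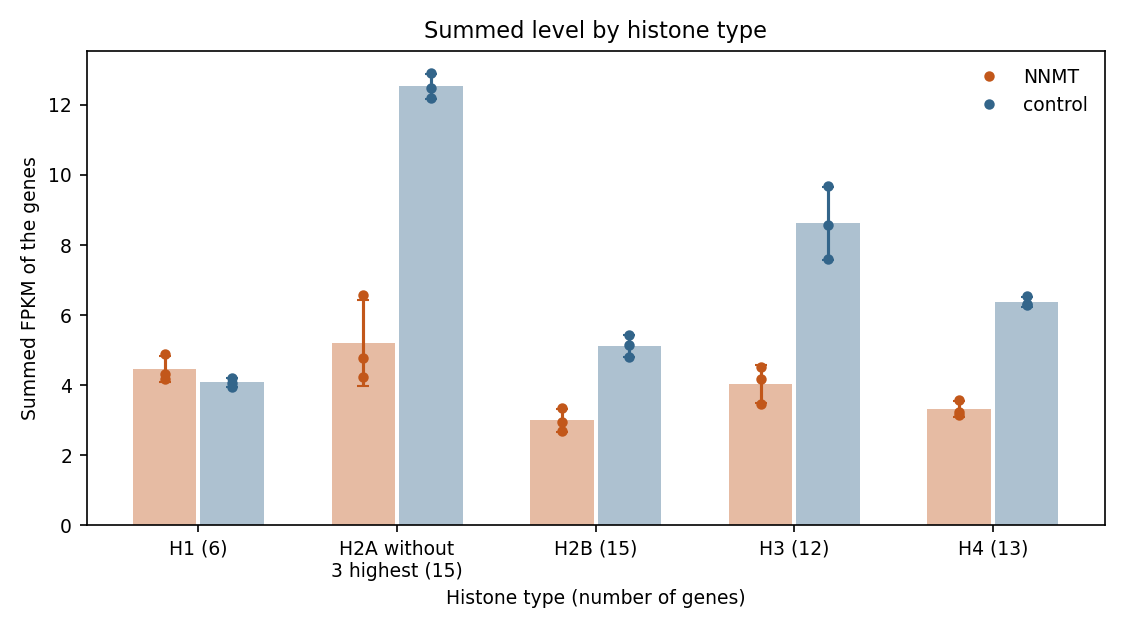
Summed FPKM of the genes of each histone type (bars: mean, points: 3 libraries per group, error bars: SD), NNMT left of control, with the 3 highest H2A genes left out. H2A, H2B, H3 and H4 separate by group, with H3 at 4.05 in NNMT and 8.62 in control cells, while H1, mostly Hist1h1c, overlaps.

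Of the 64 genes, 11 reached a mean of 1 FPKM over the 6 libraries and entered the test, limma on log2(FPKM + 1) adjusted over 10882 genes. At an adjusted p under 0.05, 8 were lower and 1 was higher in NNMT cells, against 30.6% lower and 35.0% higher among all genes tested. Of the 8, 4 had a mean below 1 FPKM in NNMT cells and passed the filter through the control libraries. These 4 were Hist1h2ai, Hist1h3h, Hist1h4d and Hist1h4i. The count of 8 and the limma p-values of these 4 are therefore descriptions. All 11 are in the Hist1 cluster. Their median log2 difference on this scale was -0.57, and that of all genes tested was 0.028.

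Limma-voom on the recovered reads of genes with at least 10 reads tested 48 of the histone genes, a test added after the data were seen so that low genes could be read. It called 14 lower and 1 higher, against 24.2% lower and 30.0% higher among 15836 genes. Of the 14, 7 were also called by limma and 7 had a mean under 1 FPKM. These 7 were Hist1h1e, Hist1h2ab, Hist1h2bj, Hist1h3a, Hist1h3d, Hist1h3e and Hist1h4n. All of them but Hist1h1e and Hist1h3e held fewer than 10 NNMT reads, which makes 5 genes that entered the test only through the control libraries, so the count of 14 is a description. The log2 difference was below 0 for 42 of the 48, with a median of -0.97 against 0.050 for all genes, and these too describe only the genes that passed the filter. Without the unnumbered NNMT library 9 were called lower. The 33 genes not called include many with intervals wide enough to hold both a fall and no change, so that a difference was not detectable at this depth.

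**Figure D2:**
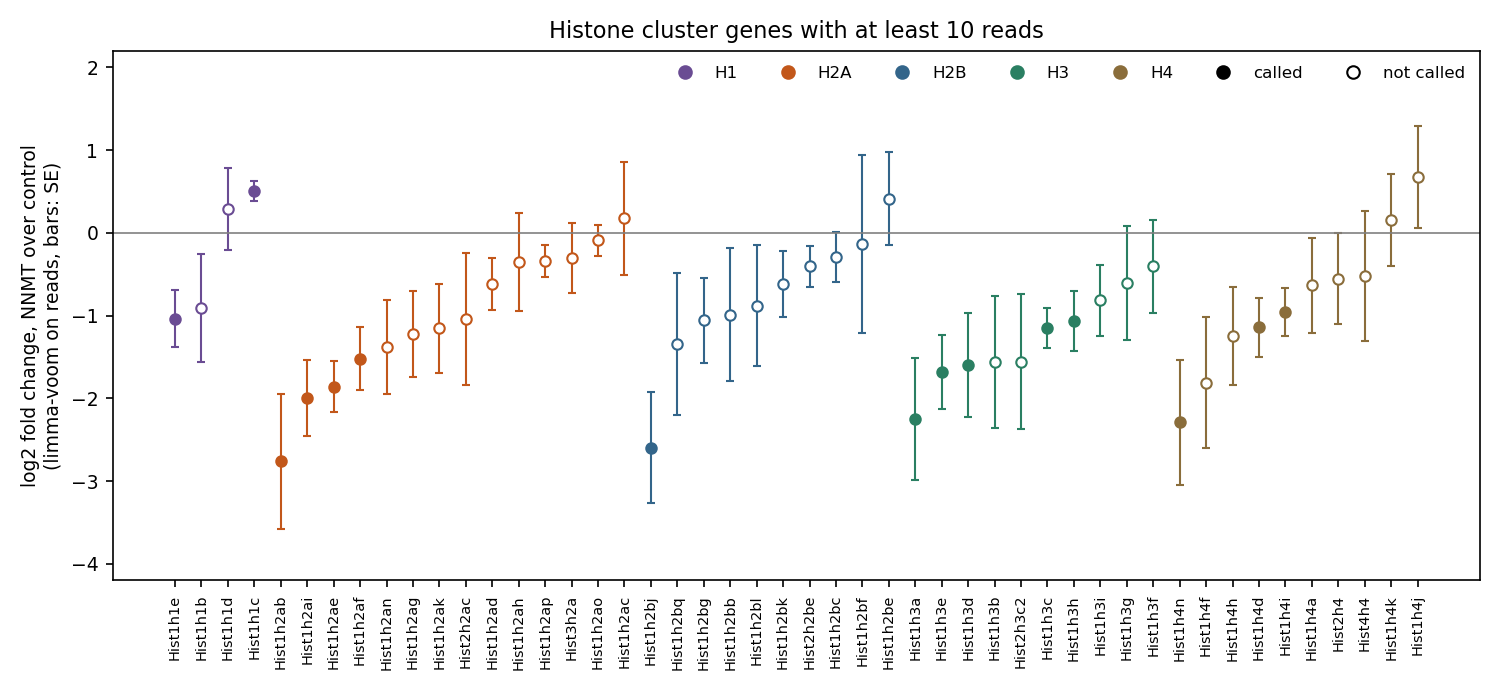
Log2 difference, NNMT over control, of the 48 histone cluster genes with at least 10 reads, by limma-voom (points: estimate, bars: SE, filled: adjusted p under 0.05), grouped by histone type. The median is -0.97, 14 genes are called lower, 5 of them with fewer than 10 NNMT reads, and Hist1h1c is called higher.

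Hist1h1c, which encodes the linker histone H1.2, rose. It lies at chr13:23738808-23740367 (ENSMUSG00000036181) and had 3.75, 3.30 and 3.58 FPKM in NNMT cells against 2.49, 2.49 and 2.53 FPKM in control cells. All 3 NNMT libraries were above all control libraries, and the fold was 1.42 (log2 difference 0.37, SE 0.0637, adjusted p = 0.00046, limma). Its annotated transcript of 1560 bases runs 840 bases past the stem-loop, and 91.5% of its 50-base windows occur in no other annotated transcript. Hist1h1c was called higher under every alternative that tested it.

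The remaining H1 genes were lower in level and mixed in direction. Hist1h1e, which encodes H1.4, had 0.701, 0.568 and 0.331 FPKM in NNMT cells against 1.06, 1.13 and 1.01 FPKM in control cells, without overlap. On the 45 NNMT and 84 control reads, limma-voom gave a log2 difference of -1.04 (SE 0.340, adjusted p = 0.0165). Part of its annotated span overlaps that of Hist1h2be on the same strand, so reads in that part may be split between them. Hist1h1d, which encodes H1.3, had 0.235, 0.266 and 0.222 FPKM in NNMT cells and 0.197, 0.207 and 0.170 FPKM in control cells. Its groups did not overlap, but on 20 and 15 reads it was not called (adjusted p = 0.649, limma-voom). Hist1h1b (H1.5) had 11 NNMT and 19 control reads, and Hist1h1a (H1.1) had 1 and 5. Hist1h1t, the testis H1, was at 0 in all 6 libraries, although every 50-base window of its coding sequence was unique.

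Among H2A genes the highest of all, Hist1h2ao, was not called, and 4 others fell. Hist1h2ao had 35.1, 27.7 and 21.2 FPKM in NNMT cells against 26.4, 34.8 and 26.8 FPKM in control cells (log2 difference -0.085, SE 0.167, adjusted p = 0.673, limma). Its groups overlapped, and the difference changed sign without control 2 (0.041) and without NNMT 3 (0.094). Hist1h2ap had 9.33, 8.87 and 5.48 FPKM in NNMT cells against 10.3, 11.3 and 7.80 FPKM in control cells, also with overlap (log2 difference -0.30, SE 0.177, adjusted p = 0.167). Without control 3 it was called lower (log2 difference -0.44, adjusted p = 0.0499, limma). None of the coding windows of either gene was unique, and only 6.50% and 6.93% of their transcript windows were, so their values depend on how reads with several matches were counted.

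Hist1h2af, in contrast, was lower with NNMT. It had 7.51, 4.54 and 5.86 FPKM in NNMT cells against 13.3, 13.9 and 28.1 FPKM in control cells. The groups did not overlap, and control 3 stood above the other libraries. The log2 difference was -1.42 (SE 0.299, adjusted p = 0.00545, limma), 3.09-fold lower, and without NNMT 2 the gene was not called (adjusted p = 0.0627). Only 5.52% of its coding windows were unique. Hist1h2ao, Hist1h2af and Hist1h2ap together made up 73.3, 65.3 and 62.7% of the summed histone FPKM in NNMT libraries and 58.8, 61.6 and 62.5% in control libraries.

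Hist1h2ae, whose promoter is printed above, had the smallest adjusted p of the 64. It lies at chr13:23570517-23571220 (ENSMUSG00000069272) and had 0.652, 1.42 and 0.957 FPKM in NNMT cells against 3.77, 3.02 and 3.91 FPKM in control cells. Every control library stood well above every NNMT library. The log2 difference was -1.20 (SE 0.130, adjusted p = 2.13e-05, limma), 3.54-fold lower in NNMT cells on 51 NNMT and 170 control reads. Of its transcript windows 56.8% were unique, the highest share among the 6 H2A genes tested, and of its coding windows 18.6%. Its deposited steps give a length of 460 bases, against 704 bases for its longest annotated transcript.

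Hist1h2ai, another H2A gene, had 1.08, 1.15 and 0.210 FPKM in NNMT cells against 2.77, 3.14 and 2.25 FPKM in control cells. NNMT 3 was the lowest and rested on 3 reads, and the groups did not overlap (log2 difference -1.07, SE 0.192, adjusted p = 0.000629, limma). The gene passed the filter through the control libraries. Hist1h2ad had 0.809, 1.34 and 1.66 FPKM in NNMT cells against 1.59, 2.11 and 1.91 FPKM in control cells. Its groups overlapped, since NNMT 3 was above control 1. It passed at an adjusted p of 0.0367 (limma, log2 difference -0.35) and lost the call in 7 alternatives, with an adjusted p up to 0.121. Only 9.88% of the windows of Hist1h2ai were unique. None of the coding windows of Hist1h2ad was, and 32.9% of its transcript windows were. The values of both genes thus also depend on how reads with several matches were counted.

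The other H2A genes of the Hist1 cluster lay under 1 FPKM. Hist1h2ak had 0.636, 0.576 and 0.140 FPKM in NNMT cells against 0.897, 1.18 and 0.643 FPKM in control cells, without overlap (adjusted p = 0.0810, limma-voom). Hist1h2an had 0.191, 0.360 and 0.280 FPKM in NNMT cells against 0.673, 0.457 and 1.45 FPKM in control cells, also without overlap (adjusted p = 0.0507, limma-voom). Neither was called, on 20 and 38 reads for Hist1h2ak and 12 and 34 for Hist1h2an. Hist1h2ag, with 27 NNMT and 61 control reads, and Hist1h2ah, with 11 and 13, overlapped between the groups. Hist1h2ac was the H2A gene with a higher mean in NNMT cells, on 13 NNMT and 9 control reads, and it too overlapped.

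**Figure D3:**
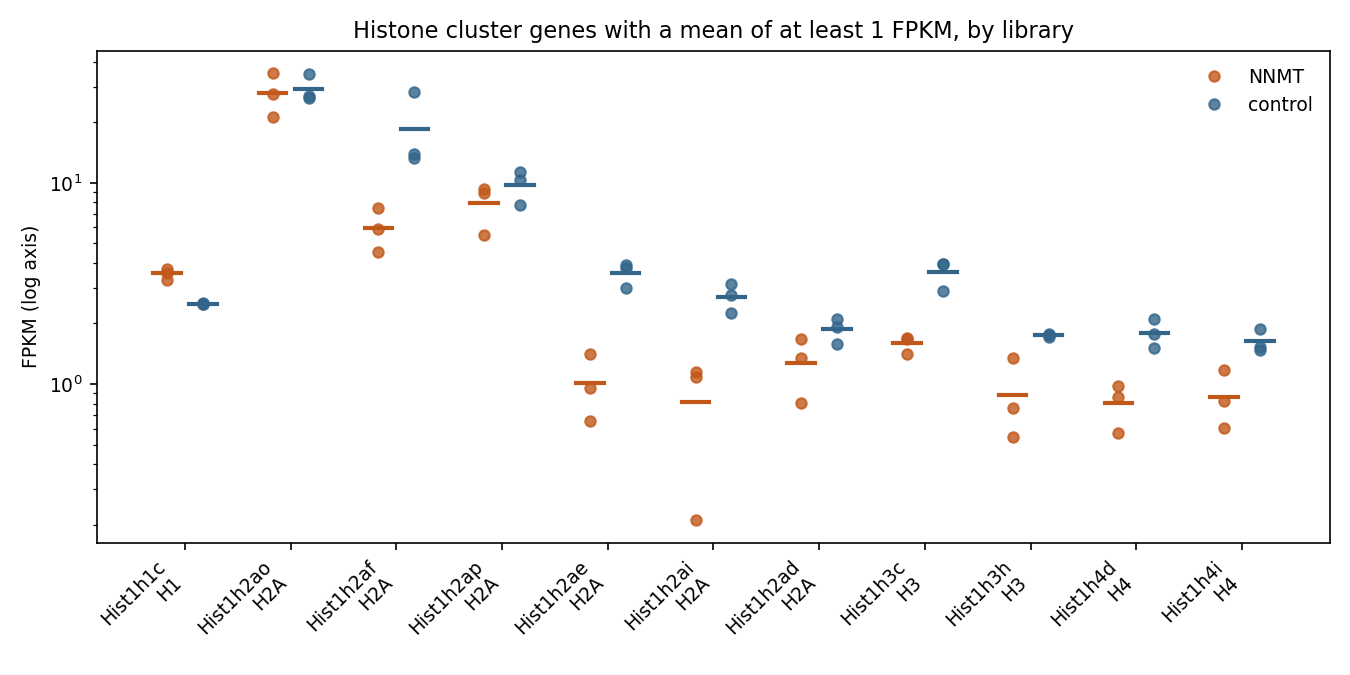
FPKM on a log axis of the 11 histone cluster genes that entered the test (points: libraries, lines: group means, n = 3 per group), NNMT left of control. Hist1h1c is higher in NNMT cells, Hist1h2ao, Hist1h2ap and Hist1h2ad overlap, and the other 7 are lower without overlap.

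H2B, the partner of H2A in the nucleosome, had no gene at a mean of 1 FPKM. Its highest gene was Hist1h2bc, at 0.916, 0.846 and 0.673 FPKM in NNMT cells and 1.08, 0.838 and 1.12 FPKM in control cells, with overlap. Hist1h2bj held 3 reads in all NNMT libraries and 25 in all control libraries. That is 0.0539, 0.0611 and 0.0594 FPKM in NNMT cells against 0.698, 0.333 and 0.546 FPKM in control cells, without overlap, and the gene entered limma-voom only through the control libraries. Of the 13 H2B genes above 0, 12 had a lower mean with NNMT and 2 (15.4%) were lower without overlap, the other being Hist1h2bg. Among all genes above 0, 46.9% had a lower mean and 21.5% were lower without overlap. Among those with a mean under 1 FPKM the shares were 47.0% and 8.87%. Hist1h2bg had 0.314, 0.356 and 0.462 FPKM in NNMT cells against 0.493, 1.56 and 0.596 FPKM in control cells and was not called (adjusted p = 0.0949, limma-voom). The exception to the lower mean was Hist1h2be, which had 23 NNMT and 18 control reads. Hist1h2bk had 32 NNMT and 46 control reads, Hist1h2bl 11 and 20, Hist1h2bb 8 and 11, Hist1h2bq 7 and 11, and Hist1h2bf 7 and 7, all with overlap. Hist1h2bp, with 2 and 7 reads, and Hist1h2bn, with 0 and 2, were under the 10 reads of the limma-voom test. Without NNMT reads, Hist1h2bn could count only as lower.

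All 10 H3 genes above 0 had a lower mean with NNMT, and 6 of them (60.0%) were lower without overlap. Among all genes above 0 these shares were 46.9% and 21.5%. Hist1h3c lies at chr13:23744973-23745602 (ENSMUSG00000069310) and had 1.69, 1.68 and 1.41 FPKM in NNMT cells against 2.88, 3.94 and 3.94 FPKM in control cells. The 2.26-fold difference rested on 87 NNMT and 184 control reads (log2 difference -0.82, SE 0.0997, adjusted p = 4.72e-05, limma). Hist1h3h had 0.547, 0.757 and 1.34 FPKM in NNMT cells against 1.72, 1.75 and 1.77 FPKM in control cells, again without overlap (log2 difference -0.57, SE 0.129, adjusted p = 0.00296, limma). It passed the filter through the control libraries. Its annotated transcript is the coding sequence alone, and only 6.08% of its windows were unique. For Hist1h3c 24.6% of the coding windows and 53.0% of the transcript windows were unique. That transcript has 630 bases, and the deposited steps of Hist1h3c give 489.

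Hist1h3e had 0.149, 0.169 and 0.132 FPKM in NNMT cells against 0.562, 0.461 and 0.529 FPKM in control cells. These were 14 and 45 reads, with a log2 difference of -1.68 (SE 0.450, adjusted p = 0.00452, limma-voom). Hist1h3d held 9 NNMT and 27 control reads and Hist1h3a 6 and 24, both without overlap. Both entered limma-voom only through the control libraries, so no p is given for them. Hist1h3i was lower without overlap at 0.365, 0.757 and 0.536 FPKM in NNMT cells against 0.786, 1.12 and 0.922 FPKM in control cells, but was not called (adjusted p = 0.123, limma-voom). Hist1h3g had 15 NNMT and 18 control reads, Hist1h3f 17 and 19, and Hist1h3b 5 and 11, each with overlap and not called.

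For H4, which pairs with H3, 10 of 11 genes above 0 had a lower mean with NNMT, against 46.9% of all genes above 0. Hist1h4d lies at chr13:23581598-23582735 (ENSMUSG00000061482) and had 0.572, 0.864 and 0.980 FPKM in NNMT cells against 2.09, 1.503 and 1.77 FPKM in control cells. It was 2.22-fold lower without overlap (log2 difference -0.63, SE 0.107, adjusted p = 0.000464, limma). Like Hist1h4i below, it passed the filter through the control libraries. Its deposited steps give a length of 393 bases, against 1138 bases for its longest annotated transcript. Hist1h4i had 0.825, 1.17 and 0.606 FPKM in NNMT cells against 1.54, 1.87 and 1.48 FPKM in control cells, 1.88-fold lower without overlap (log2 difference -0.50, SE 0.111, adjusted p = 0.00251, limma). The exception was Hist1h4j, with 16 NNMT and 10 control reads. Its log2 difference of 0.67 (SE 0.614) was not called (adjusted p = 0.377, limma-voom). Among the genes not tested by limma, Hist1h4n held 5 NNMT and 23 control reads without overlap. It entered limma-voom only through the control libraries, and none of its coding windows was unique. Hist1h4k had 20 NNMT and 19 control reads, Hist1h4h 17 and 38, Hist1h4a 13 and 21, and Hist1h4f 4 and 13, all with overlap and not called. Hist1h4m held 1 read in all, in control 1, and could count only as lower.

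Most of the cluster genes lay below the filter, and they too were mostly lower. Of 42 genes above 0 with a mean under 1 FPKM, 38 (90.5%) had a lower mean with NNMT, against 47.0% of all genes in that range. The groups did not overlap for 11 lower ones (26.2%) and 1 higher one, against 8.87% and 13.9% of all such genes. These 42 genes held 252, 243 and 225 reads in NNMT cells and 354, 441 and 361 reads in control cells. They include Hist1h2bn and Hist1h4m, which had reads only in control libraries and could count only as lower. Hist1h2ab, an H2A gene, held 4 NNMT and 27 control reads without overlap, and entered limma-voom only through the control libraries.

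By cluster, all calls were of Hist1 genes. The Hist1 cluster has a gap between 22 genes at chr13:21715763-22043676 and 30 genes at chr13:23531050-23934851. The first group summed to 42.4 ± 9.13 FPKM in NNMT cells and 53.1 ± 7.07 FPKM in control cells, and its libraries overlapped. The second summed to 18.5 ± 0.834 FPKM in NNMT cells and 39.8 ± 9.25 FPKM in control cells, 2.16-fold lower without overlap. Hist1h2af is part of it, and without that gene the sums were 12.5 ± 0.656 FPKM in NNMT cells and 21.4 ± 0.890 FPKM in control cells, 1.71-fold lower without overlap. The first group holds Hist1h2ao (mean 28.0 FPKM in NNMT and 29.4 FPKM in control cells) and Hist1h2ap (7.89 and 9.80 FPKM). These make up most of its sum, which was not taken without them, so the sums do not place the fall in the second group. Of the 21 genes of the first group above 0, 20 had a lower mean, against 21 of 25 in the second. The median limma-voom log2 difference was -0.93 over 18 genes of the first group and -1.05 over 24 of the second.

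Outside Hist1 no gene reached the limma filter. All 7 genes above 0 there had a lower mean with NNMT, with overlapping groups, against 47.0% of all genes above 0 with a mean under 1 FPKM. Limma-voom tested 6 of them and called 0 (0 also at an unadjusted p under 0.05). Of these, Hist2h3c2 and Hist2h2ac entered only through the control libraries, so no p is given for them. None of the coding windows of Hist2h3c2 was unique. Hist2h2be, the highest gene above 0 outside Hist1, had 0.353, 0.367 and 0.536 FPKM in NNMT cells against 0.516, 0.657 and 0.458 FPKM in control cells. With 122 NNMT and 151 control reads its log2 difference was -0.41 (SE 0.247, adjusted p = 0.180, limma-voom). Hist2h2ac had 0.192, 0.272 and 0 FPKM in NNMT cells against 0.226, 0.198 and 0.243 FPKM in control cells. Hist2h4 had 0.0919, 0.104 and 0.203 FPKM in NNMT cells against 0.108, 0.142 and 0.446 FPKM in control cells.

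The other Hist2, Hist3 and Hist4 genes above 0 were lower still in level. Hist2h3c2 had 6 NNMT and 12 control reads, Hist3h2ba had 2 and 4, and Hist4h4 had 10 and 13. Hist3h2a had 0.233, 0.119 and 0.103 FPKM in NNMT cells against 0.233, 0.144 and 0.177 FPKM in control cells, with overlap.

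H2A and H2B genes often lie head to head and share the stretch between them, and 12 such pairs were found, with starts 176 to 306 bases apart. The Hist1h2ae window above reaches across the 176 bases to the start of Hist1h2bg. In FPKM, which is per length, the H2A gene was the higher of the pair in 8, the H2B gene in 3, and both were at 0 in 1. In 6 of the 8 the H2A gene was higher in all 6 libraries. Among pairs with both genes above 0 the most uneven was Hist1h2ao with Hist1h2bq, at a mean of 28.7 and 0.0397 FPKM. Neither has a unique coding window, so both levels depend on how reads with several matches were counted. Hist1h2bk, Hist1h2bc and Hist2h2be exceeded their H2A partners. The mean FPKM of both genes was lower with NNMT in 9 of the 12 pairs, a direction of means and not a call. Limma and limma-voom called both genes lower in 0 pairs, but limma tested no H2B gene. Limma-voom did not test Hist1h2bn, Hist1h2bp, Hist1h2br or the pair at 0, so those pairs could not be called. For single genes above 0 in the table the share with a lower mean was 46.9%, which is not a share of pairs.

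**Figure D4:**
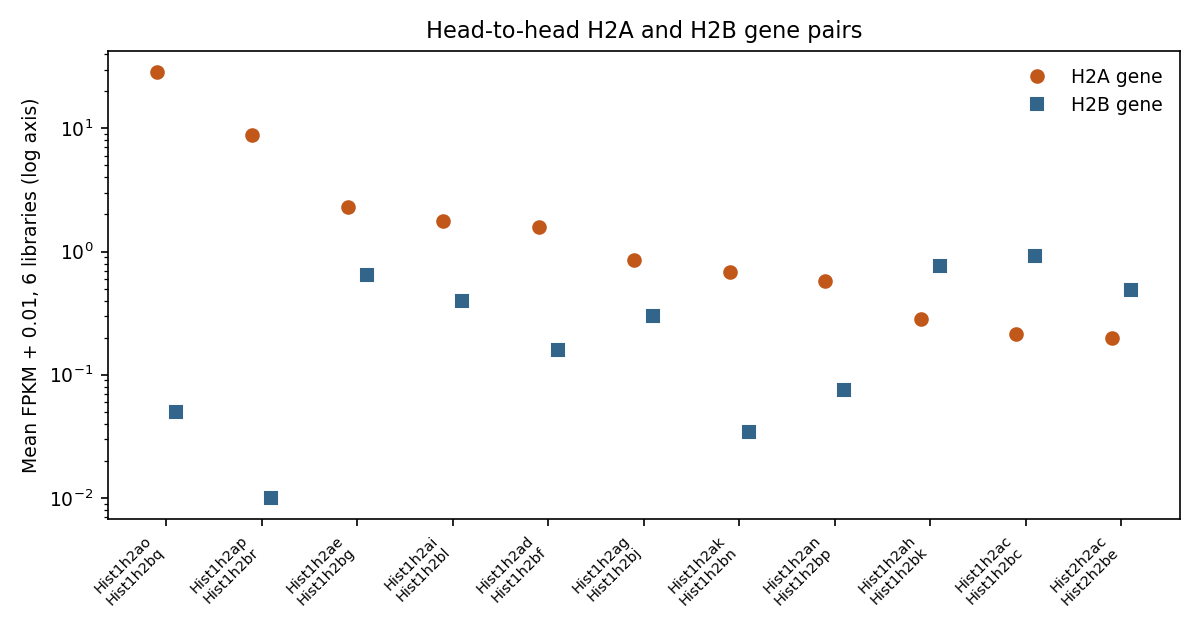
Mean FPKM over 6 libraries, plus 0.01, on a log axis for the 11 head-to-head H2A (circles) and H2B (squares) pairs with a gene above 0, in order of the H2A level. H2A is above H2B in 8 pairs and below it in 3.

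The 11 genes at 0 comprise 4 H2A, 2 H2B, 2 H3, 2 H4 genes and Hist1h1t. Hist1h2aa and Hist1h2ba are testis histones, with 76.2% and 61.8% of their coding windows unique. Hist2h2aa1, Hist2h2aa2, Hist2h3c1, Hist2h3b and Hist1h2br had no unique coding window. The median share of unique coding windows was 2.66% in the 11 genes at 0 and 23.8% in the 53 above 0. A listing at 0 may thus be a gene without reads or a gene whose reads were not assigned, and these cannot be told apart from the table. All 4 genes with no unique transcript window were at 0. Hist1h4c and Hist2h2ab were at 0 with 42.6% and 40.4% of their coding windows unique, and Hist1h4b with 2.66%.

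Of 18 genes that transcribe and process histone mRNA, 16 were tested, with 5 lower, 5 higher and a median log2 difference of 0.10. These shares are near those of all genes tested (30.6% lower, 35.0% higher, median 0.028). Slbp had 43.2, 50.6 and 46.4 FPKM in NNMT cells against 44.0, 42.4 and 43.1 FPKM in control cells and was not called (adjusted p = 0.121, limma). Npat, the coactivator of histone genes, stood at 5.83 ± 0.425 FPKM in NNMT cells and 5.50 ± 0.191 FPKM in control cells (adjusted p = 0.338). Lsm10, a subunit of the U7 particle that guides the cleavage, was 1.39-fold lower, at 16.3 ± 0.456 FPKM in NNMT cells and 22.7 ± 0.984 FPKM in control cells (adjusted p = 2.29e-05). Sympk and Cstf2, of the cleavage machinery, were 1.31-fold and 1.59-fold lower, and Lsm1, of the decay pathway, was 1.46-fold higher.

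Of 11 histone variants made outside the clusters, 8 were lower by limma, with a median log2 difference of -0.27, against 30.6% lower and a median of 0.028 over all genes tested. H2afx, the variant phosphorylated at DNA breaks, had 49.5, 51.4 and 49.6 FPKM in NNMT cells against 79.2, 77.4 and 77.8 FPKM in control cells, 1.56-fold lower without overlap (adjusted p = 7.65e-07, limma). H2afy was 1.27-fold, H2afj 1.32-fold and H1f0 1.34-fold lower. H2afz, which marks promoters, had 480 ± 30.0 FPKM in NNMT cells and 501 ± 1.97 FPKM in control cells and was not called (adjusted p = 0.310).

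Of 23 histone chaperone and deposition genes 11 were lower and 5 higher, with a median log2 difference of -0.078, against 30.6% lower and 35.0% higher over all genes tested. Rbbp7, a subunit of the Hat1 acetylase, was 2.07-fold lower at 76.5 ± 5.93 FPKM in NNMT cells and 159 ± 3.58 FPKM in control cells (adjusted p = 2.03e-07, limma). Chaf1a, the large subunit of chromatin assembly factor 1, was 1.42-fold lower, Rbbp4 1.55-fold and Atrx 1.76-fold.

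Of 42 tested genes of DNA replication and S phase, 21 were lower, 6 higher and 15 not called, with a median log2 difference of -0.15. Over all genes tested 30.6% were lower and 35.0% higher. Pola1, the catalytic subunit of DNA polymerase alpha, had 7.81 ± 0.542 FPKM in NNMT cells and 16.3 ± 0.575 FPKM in control cells (adjusted p = 3.44e-07, limma). Lig1 was 1.58-fold, Clspn 1.75-fold and Uhrf1 1.58-fold lower. The part of S phase in the histone values was not tested.

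Of 50 tested non-histone genes within the clusters or 500 kb of them, 7 were lower and 26 higher, with a median log2 difference of 0.17, against 30.6% lower and 35.0% higher over all genes tested. Around Hist1, 66 non-histone genes were listed and 9 tested, with 6 higher and 1 lower. Among them Zkscan8, a zinc finger gene, had 3.10 ± 0.274 FPKM in NNMT cells and 2.08 ± 0.121 FPKM in control cells (adjusted p = 0.000577, limma). Zkscan3 was 1.23-fold and Zscan26 1.33-fold higher, and Carmil1 was 1.19-fold lower. Around Hist2, 23 were tested, with 15 higher and 2 lower. Around Hist3, 12 were tested, with 4 higher and 3 lower, and around Hist4, 6 were tested, with 1 higher and 1 lower.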

How the data were processed

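The authors deposited FPKM, reads scaled by transcript length and library total, in 1 table of 6 libraries; the unit was inferred from the values, since the header gives none. Whole reads (tolerance 0.01) were recovered from their steps for 20528 of 20528 genes above 0, at the longest GENCODE M21 transcript for 14597, at another transcript for 1119 and as the smallest whole length for 4812, where reads are a minimum. Per the submitters' processing notes the tools were CASAVA and STAR 2.5 and the build mm10. The sources used here do not give the counter, its strand setting, its treatment of reads with several matches, or poly(A) selection. Of the row identifiers, 34490 were paired with M21. The NNMT column without a number was used as the remaining NNMT library.

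Genes that reached a mean of 1 FPKM were tested on log2(FPKM + 1), which understates changes of low genes, with limma 3.58.1 in R 4.3.3 (trend, robust, two-sided, Benjamini-Hochberg over all genes tested, threshold 0.05). Log2 differences are on that scale unless limma-voom is named, and folds are ratios of mean FPKM, given from 10 reads per group. An exact two-sided permutation test of 3 against 3 libraries cannot go below 0.1, the value of every histone gene without overlap that limma tested. Scripts were tested on simulated data. Uniqueness is the share of 50-base windows found in no other annotated transcript. Coordinates are GRCm38.

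The members and lists were chosen with earlier results of these data known. Every member with a mean of at least 1 FPKM may be named, with values per library for those called and for the highest of each type and cluster, and up to 4 genes per list by adjusted p. Other genes were named after their values were seen. Zcchc6 was not used. Alternatives were pseudocounts of 0.1 and 10 FPKM, no filter or 5 FPKM, other scalings, limma settings, limma-voom, a replicate block and leaving out each library.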

Additional observations from a re-analysis of the deposited data

How the results depend on the processing

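Over the alternatives, the direction of each of the 11 tested histone genes held, except that of Hist1h2ao, which had a log2 difference of 0.041 without control replicate 2 and 0.094 without NNMT replicate 3 (-0.26 to 0.094 over the libraries left out). The count of histone genes called lower was 15 of 53 with no filter on low values and 1 of 3 at a mean of at least 5 FPKM, where 0 were called higher. It was 14 of 48 with limma-voom at 10 reads or more. Leaving out 1 library gave 7 to 8 lower and 1 higher in limma, and 9 to 16 lower in limma-voom, with 9 without the unnumbered NNMT library. With a replicate block over the 4 libraries numbered 2 and 3, limma called 10 lower and 1 higher, and 8 lower without the block. The calls added by the block were Hist1h2ao and Hist1h2ap. With so few libraries the block leaves little to estimate spread from, so these calls are not read as falls of Hist1h2ao and Hist1h2ap. Deviations correlated at 0.21 for the libraries numbered 2, 0.11 for those numbered 3, and 0.31 for the unnumbered NNMT library with control 1, the highest of the 9 values. The numbers are not taken as pairs, since that NNMT column carries none and only 2 are shared, so no block over all 6 libraries was fitted. No scaling moved the median of all genes by over 0.1. Histone genes rest on few reads, 9068 in all, of which 54.6% fall on 3 H2A genes that are close copies.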
